A study of Mus musculus with 44 samples.

Results

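T cell receptor β (TRB) chains whose complementarity-determining region 3 (CDR3) starts with the residues of the Trbv13-2 gene were followed across B16 melanomas. Members were chosen by sequence alone: a CDR3 had to begin with CASG and finish with the ending of 1 of the 12 mouse Trbj genes. The rule selected 9138 of 170818 entries, an entry being 1 amino acid CDR3 in 1 tumour. They comprised 7499 of 121860 distinct CDR3s and 230796 of 8976451 reads. Members made up 8.43% of the 108453 TRB entries and 3.27% of the 7058527 TRB reads. Another 1368 TRB entries began with CASG but had a trimmed or changed ending and were left out, as were 289 entries with that start that were not assigned to TRB.

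The series comprised 44 tumours, 1 library each, from wild-type C57BL/6 mice (the substrain C57BL/6J by the methods) carrying the B16F10 melanoma line under the skin of the back. By the methods, 100 µg of tissue was taken from each tumour on day 12. By the sample titles, mice received vehicle (14 tumours), an antibody against the checkpoint receptor PD-1 (anti-PD-1, 15 tumours) or AC484, an inhibitor of the phosphatases PTPN2 and PTPN1 (15 tumours). The first group is called vehicle here after the titles, whereas its labels in the deposited counts and the methods for this experiment give no treatment. The labels give no age; for tumour challenges the methods name age-matched mice of 7 to 12 weeks. RNA came from whole tumour tissue, so that fewer T cells and less receptor RNA per T cell cannot be told apart.

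A TRB chain is assembled in the thymus from a V, a D and a J gene, with bases trimmed and added at each junction. The CDR3 spans these junctions and contacts the peptide held by the MHC molecule. Trbv13-2 encodes the chain long known as Vβ8.2, which is common among mouse T cells and is favoured by invariant natural killer T (iNKT) cells, in which it pairs with an invariant TCRα chain. The table held no V gene calls, so the members are called Trbv13-2-start CDR3s here.

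The start could serve as a marker because Trbv13-2 differed from its close relatives at CDR3 codon 4. The last 16 bases of 3 germline genes are shown from the conserved cysteine codon onwards, with codon 4 in capitals, from the plus strand of chromosome 6 in GRCm38:
Trbv13-1: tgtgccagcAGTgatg
Trbv13-2: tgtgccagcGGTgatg
Trbv13-3: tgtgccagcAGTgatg
The Trbv13-2 stretch lies at chr6:41121817-41121832, the 3′ end of exon 2 of a gene of 2 exons spanning chr6:41121396-41121832. The Trbv13-1 stretch lies at chr6:41116453-41116468 and the Trbv13-3 stretch at chr6:41130570-41130585, both also the 3′ ends of their genes. The codon GGT encodes glycine and AGT serine, so that Trbv13-2 reads CASGD and both relatives read CASSD. Of 22 TRBV genes annotated as no pseudogene, 1 had the start CASG and 16 had CASS.

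The label was checked against residue 5, which the rule did not use. Aspartate, the germline residue, stood there in 4930 of the 9138 members (54.0%) and glutamate in 1060 (11.6%). In the 6060 entries with 8 other residues at position 4 (CASR, CAST, CASK, CASA, CASN, CASI, CASP and CASL), aspartate stood at position 5 in 15.2% and glutamate in 2.03%. In CASS-start entries, which come from many V genes, these shares were 9.11% and 2.52%. The germline residue was thus more frequent behind CASG than behind these other starts, but 1067 members (11.7%) had glycine at this position.

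The last base of the germline tail, g, begins codon 6. Alanine, glycine, valine, aspartate and glutamate are the residues whose codons begin with g, and they stood at position 6 in 57.7% of the 4930 CASGD entries. The share was 48.4% in 5848 CASSD entries, the start of Trbv13-1 and Trbv13-3, and 4.17% in 719 CASRD entries. It was also 56.6% in 16549 CASSL and 81.0% in 7218 CASSQ entries, starts of other V genes, so that this share was not particular to the Trbv13 genes. Alanine alone stood at position 6 in 35.9% of CASGD, 23.0% of CASSD, 0.695% of CASRD, 6.57% of CASSL and 4.74% of CASSQ entries.

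A CASG start can also arise when another V gene is trimmed and the junction adds glycine, or from a misread base, since AGT and GGT differ by 1 base. Other V starts showed how often position 4 became glycine. There were 114 CAWG entries against 2909 CAWS entries, the germline start of Trbv31, a ratio of 3.92%. The ratio was 0.378% for CTCG against CTCS, the start of Trbv1, and 7.59% for CGAG against CGAR, the start of Trbv20. For CASG against CASS it was 14.2%. A CDR3 identical except for serine at position 4 lay in the same tumour for 163 of 4930 CASGD members (3.31%) and 246 of 4208 other members (5.85%). In 1 and 4 of these entries, respectively, that counterpart had at least 100 times the reads. The start therefore marks a class enriched in Trbv13-2 and not a V gene call, and results were also computed on CASGD members alone.

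Depth differed between groups. TRB reads per tumour ran from 6415 to 201469 with vehicle, from 62308 to 487275 with anti-PD-1 and from 39628 to 430457 with AC484. Numbers of distinct CDR3s were therefore taken after drawing each tumour down to 6415 TRB reads, as the mean of 100 draws. The libraries also carried 4 index primer sets: set 1 held 12 vehicle tumours only, set 4 held 8 AC484 tumours only, set 2 held 10 anti-PD-1 and 2 vehicle tumours, and set 3 held 7 AC484 and 5 anti-PD-1 tumours. No set held AC484 and vehicle, so treatment and index set cannot be told apart in that comparison.

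At equal depth, AC484 tumours held about 2.20 times as many distinct Trbv13-2-start CDR3s as vehicle tumours. The count ran from 6.47 to 81.7 (median 29.3) with vehicle, from 37.2 to 91.9 (median 58.9) with anti-PD-1 and from 39.3 to 203.4 (median 72.7) with AC484. All 15 AC484 tumours and all 15 anti-PD-1 tumours lay above the vehicle median, although the groups overlapped. Vehicle tumours fell widely apart, with tumours 2, 5 and 6 at 10.8, 9.59 and 6.47 and tumours 7, 9, 10 and 11 between 70.5 and 81.7. Those 4 included the 3 libraries of lowest concentration in the group, at 2.12 to 2.85 nM. Without libraries under 3.5 nM, the mean with AC484 exceeded that with vehicle by 45.9, and that with anti-PD-1 exceeded it by 34.3 (permutation test, adjusted p = 0.0015 for each). AC484 minus anti-PD-1 was then 11.6 (permutation test, adjusted p = 0.21). The part of library concentration in the counts was not tested otherwise.

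The mean was 36.2 ± 26.9 (SD, n = 14) in vehicle tumours, 59.5 ± 15.0 (n = 15) in anti-PD-1 tumours and 79.5 ± 37.4 (n = 15) in AC484 tumours. The difference of 43.3 between AC484 and vehicle (95% interval 18.5 to 68.0) passed the two-sided permutation test (adjusted p = 0.0049 over 18 tests). Scaling and rounding counts in place of drawing reads reduced the difference to 22.3 and ended the call (permutation test, adjusted p = 0.35). The anti-PD-1 mean exceeded the vehicle mean by 23.3 (permutation test, adjusted p = 0.073) and the AC484 mean exceeded the anti-PD-1 mean by 20 (adjusted p = 0.17), neither past the threshold of 0.05. The former passed when any one of vehicle tumours 7, 9, 10 or 11 was left out, with an adjusted permutation p between 0.018 and 0.034. The latter passed without AC484 tumour 1 (difference 22.9, adjusted permutation p = 0.048), and fell to 11.2 without AC484 tumour 10, which held 203.4. Within index set 2 the anti-PD-1 tumours exceeded the vehicle tumours by 37.1 (exact permutation test, p = 0.015, the smallest that 10 against 2 tumours allow, adjusted p = 0.18 over the 12 tests within index sets). Within index set 3 the AC484 tumours exceeded the anti-PD-1 tumours by 17.7 (exact permutation p = 0.12, adjusted p = 0.41).

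**Figure D1:**
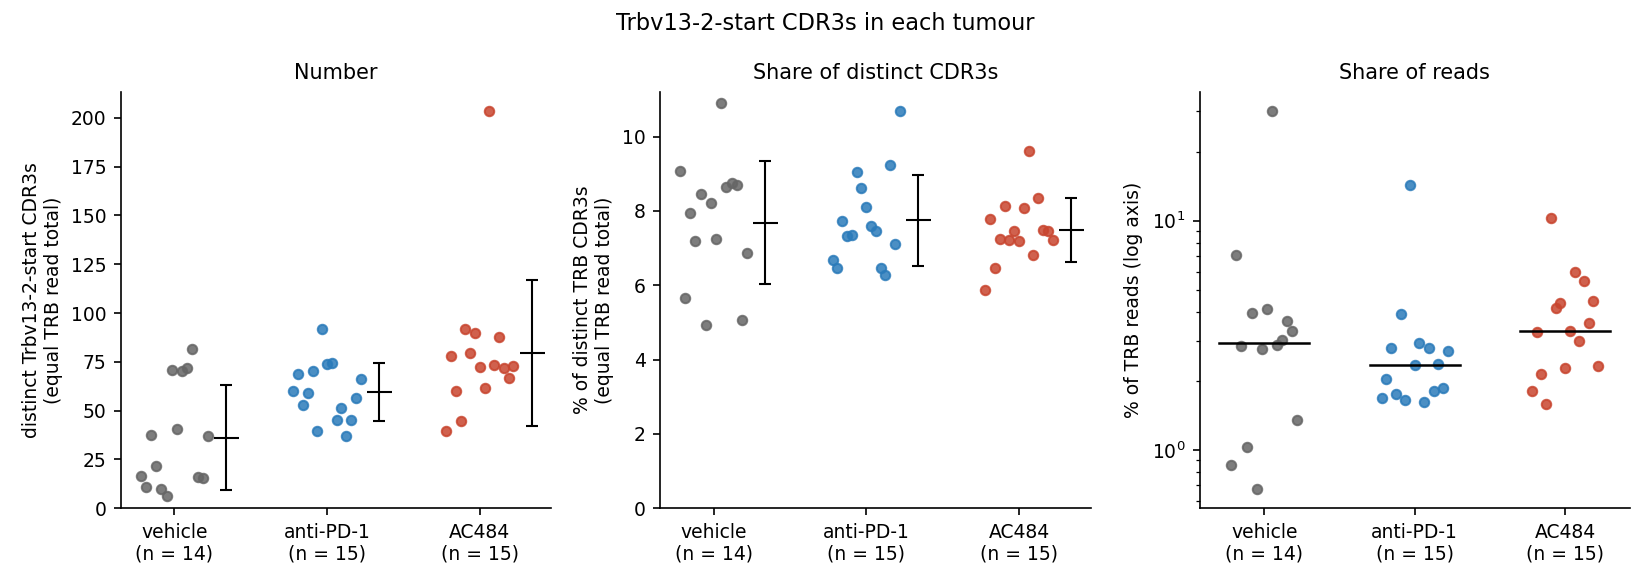
Points show each tumour by group: distinct Trbv13-2-start CDR3s at 6415 TRB reads (left), their percentage of distinct TRB CDR3s at that total (middle), and their percentage of all TRB reads on a log axis (right). Black marks are means with SD in the left and middle panels and medians on the right. In the left panel 7 of 14 vehicle tumours lie below every treated tumour and the others overlap with them, whereas shares of distinct CDR3s centre between 7.49% and 7.75% in every group.

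The share of the repertoire did not follow the number. All distinct TRB CDR3s at the same depth averaged 447.2 with vehicle, 779.2 with anti-PD-1 and 1034 with AC484, so that Trbv13-2-start CDR3s formed 7.69% ± 1.66, 7.75% ± 1.22 and 7.49% ± 0.870 of them. AC484 minus vehicle was −0.195 percentage points (95% interval −1.24 to 0.847; permutation test, adjusted p = 0.89). AC484 minus anti-PD-1 was −0.254 points (95% interval −1.05 to 0.543), and anti-PD-1 minus vehicle was 0.0598 points (95% interval −1.07 to 1.19; adjusted permutation p = 0.79 and 0.91). Single tumours ranged from 4.92% in vehicle tumour 6 to 10.9% in vehicle tumour 9.

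Usage was also fitted as counts of distinct CDR3s per 4-residue start, over the 26 starts with at least 100 distinct CDR3s. By edgeR's quasi-likelihood test, the log2 fold change of CASG was 0.13 (SE 0.08, adjusted p = 0.46) for AC484 over vehicle, −0.05 (SE 0.07, adjusted p = 0.56) for AC484 over anti-PD-1 and 0.19 (SE 0.08, p = 0.023, adjusted p = 0.30) for anti-PD-1 over vehicle. In these comparisons 3.85%, 0% and 3.85% of all starts were called. DESeq2 called CASG higher with anti-PD-1 than with vehicle (log2 fold change 0.28, adjusted p = 0.017), whereas edgeR with DESeq2's size factors gave 0.07 (adjusted p = 0.82) and counts at an equal TRB total −0.15 (edgeR adjusted p = 0.89). In these fits the sign of this comparison thus differed between all reads and 1 draw at an equal TRB total. Its size differed with the size factors and its call with the tool, and the cause was not tested.

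Trbv13-2-start chains took a smaller share of reads than of distinct CDR3s, and single clones set the highest values. With all reads used, the share of TRB reads ran from 0.673% to 30.1% (median 2.94%) with vehicle, from 1.63% to 14.3% (median 2.35%) with anti-PD-1 and from 1.58% to 10.2% (median 3.30%) with AC484. The top values stood alone: vehicle tumour 9 at 30.1%, anti-PD-1 tumour 7 at 14.3% and AC484 tumour 5 at 10.2%. Group means were 4.83% ± 7.47, 3.10% ± 3.16 and 3.86% ± 2.19. No difference passed the permutation test (adjusted p = 0.79 to 0.91), and without vehicle tumour 9 the AC484 minus vehicle difference turned from −0.968 to 0.979 points and anti-PD-1 minus vehicle from −1.73 to 0.218.

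Few expanded clones carried the start. Of 633 TRB CDR3s that held at least 1% of a tumour's TRB reads, 16 were members (2.53%), against 8.43% of all TRB entries. Members were 8 of 191 such CDR3s with vehicle (4.19%, in 6 tumours), 3 of 214 with anti-PD-1 (1.4%, in 2) and 5 of 228 with AC484 (2.19%, in 5). Some rested on few reads: the largest members of vehicle tumours 5 and 8 held 106 of 7648 and 142 of 7659 TRB reads. The member nearest below this threshold held 0.873% and the one nearest above 1.03%.

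The largest Trbv13-2-start clones were found in vehicle tumour 9. The leading one was a 15-residue CDR3 with a Trbj1-3 ending (1647 reads, 15.9% of TRB reads, rank 1 in its tumour), followed by a 16-residue CDR3 with a Trbj2-7 ending (1146 reads, 11.1%). The largest member of vehicle tumour 2 (rank 4 among its TRB CDR3s), shown here because its whole junction is short, held 3556 reads (5.88% of TRB reads and 83.2% of the tumour's member reads) with a Trbj1-4 ending:
vehicle tumour 2: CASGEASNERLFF
In anti-PD-1 tumour 7, a 15-residue CDR3 with a Trbj2-3 ending reached 6.13% and a 17-residue CDR3 with a Trbj2-4 ending 4.33%. The next of that group, 16 residues with a Trbj2-3 ending, held 1.08% in anti-PD-1 tumour 3. With AC484, a 15-residue CDR3 ending in Trbj2-2 held 5.33% in tumour 5, and a 15-residue CDR3 ending in Trbj2-3 held 2.15% in tumour 12. The last, in AC484 tumour 14, held 2.09% and also ended in Trbj2-3:
AC484 tumour 14: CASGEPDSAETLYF
Of these 9 clones, 4 ended in Trbj2-3. Each was also found in 1 to 12 other tumours. Once counts under 1% of the same CDR3's largest count were left out as possible carry-over between libraries, 7 of the 9 remained in their own tumour alone.

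The largest member clone took 33.0% ± 24.5 of a tumour's member reads with vehicle, 18.2% ± 13.3 with anti-PD-1 and 25.7% ± 14.1 with AC484. The highest was 83.2% in vehicle tumour 2 and the lowest 6.05% in anti-PD-1 tumour 15. All reads were used here, and vehicle tumours 2, 5 and 6 held 15, 10 and 8 members, against 81 to 317 in anti-PD-1 tumours. The part of the number of members in this share was not tested. No difference passed the permutation test. The lowest adjusted p, 0.18, was that of anti-PD-1 minus vehicle, at −14.8 points (95% interval −30.2 to 0.620).

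Within a tumour, members were carried by fewer reads each than other TRB CDR3s with the same 12 endings. The geometric mean over tumours was 22.4 reads per distinct member and 67.8 per other CDR3, a ratio of 0.330 (95% interval 0.265 to 0.411). Members lay lower in 40 of 44 tumours (permutation of the labels within tumours, 100000 resamples, adjusted p = 8e-05 over 16 tests, from the smallest p these resamples can give, 1e-05). The exceptions were vehicle tumours 2 and 9, anti-PD-1 tumour 7 and AC484 tumour 5, which held the large clones named above. With the median in place of the mean, the log2 difference shrank from −1.60 to −0.442 and still passed (adjusted p = 8e-05 by permutation within tumours). Members seen as a single read formed 23.0% ± 12.7 of members and 21.7% ± 13.0 of other CDR3s.

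Members were also less often shared. On average 31.8% ± 8.16 of a tumour's distinct members were found in at least 1 of the other 43 tumours, against 41.7% ± 8.90 of its other CDR3s. The difference of −9.91 points (95% interval −11.3 to −8.51) had the same direction in 44 of 44 tumours (permutation within tumours, adjusted p = 8e-05). For CASGD members alone it was −4.11 points (adjusted p = 0.0041 by permutation within tumours), and with carry-over left out −6.91 points. It averaged −11.9 points with vehicle, −9.62 with anti-PD-1 and −8.36 with AC484. Over the pooled set, 922 of 7499 members (12.3%) were found in at least 2 tumours and 14 (0.187%) in at least 10, against 15.5% and 0.398% of 65266 other CDR3s. Sharing was counted by amino acid sequence without V gene calls, and the other CDR3s pool starts of many V genes. The part of this, and of the fewer reads per member, was not tested.

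**Figure D2:**
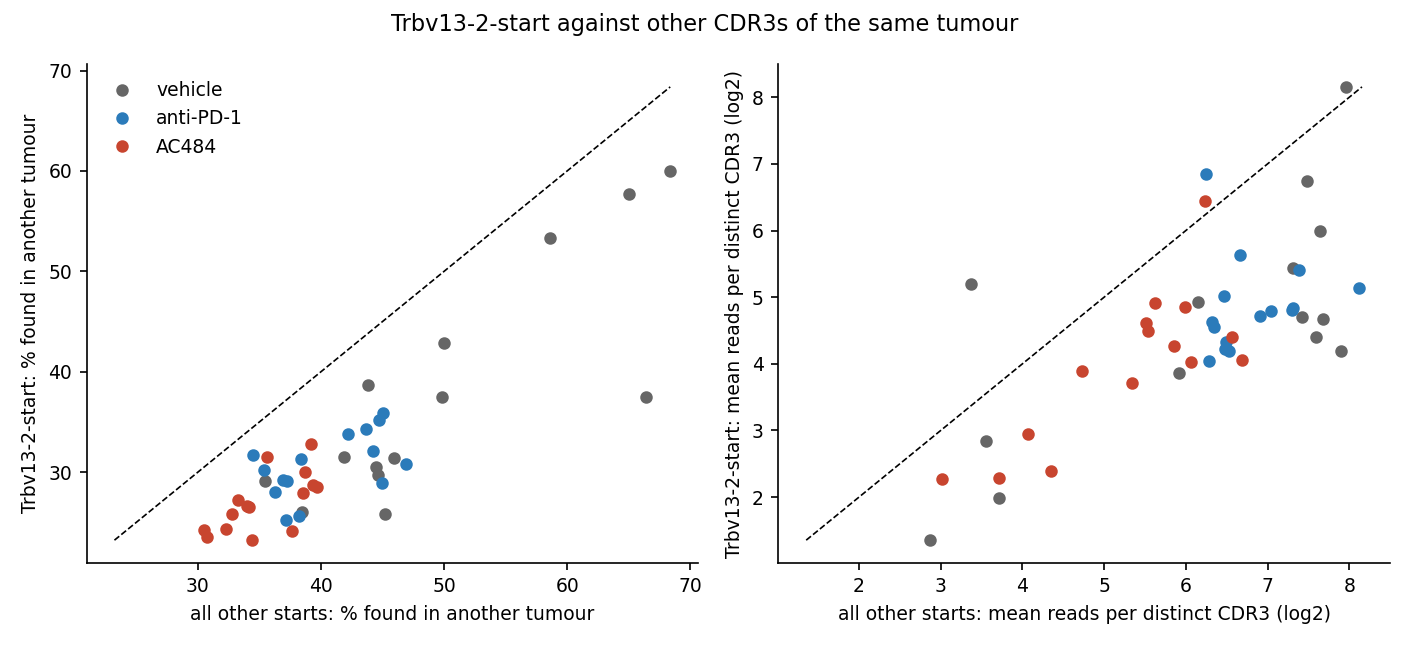
Each point is a tumour, with other TRB CDR3s on the horizontal and Trbv13-2-start CDR3s on the vertical axis, and the dashed line marks equality. Left, percentage of distinct CDR3s found in another tumour, where all 44 tumours lie below the line. Right, log2 of the mean reads per distinct CDR3, where 40 of 44 lie below it.

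Sharing was then compared between treatments, with each tumour's own members drawn to equal depth. A drawn member counted as found in another tumour when any other tumour held it among all its reads. The tumours searched were thus not at equal depth, and those searched for a vehicle tumour were not the same set as for a treated one. The part of this in the differences was not tested. Members found in another tumour made up 38.2% ± 10.7 with vehicle, 34.1% ± 3.53 with anti-PD-1 and 31.5% ± 5.03 with AC484. The range was widest with vehicle, from 26.3% in tumour 9 to 58.1% in tumour 5, which held 9.59 members. AC484 minus vehicle was −6.69 points (95% interval −13.3 to −0.104; permutation test, p = 0.038, adjusted p = 0.17). AC484 minus anti-PD-1 was −2.64 points and anti-PD-1 minus vehicle −4.04 points (adjusted p = 0.32 and 0.41 by permutation test). Without depth normalization the first was −11.0 points and passed (adjusted permutation p = 0.0016), as did AC484 minus anti-PD-1 at −3.75 points (adjusted permutation p = 0.013). The latter turned to 0.966 points with counts scaled and rounded (34.5% with anti-PD-1 and 35.5% with AC484) and to 0.310 points within index set 3 (32.2% and 32.5%), neither past the threshold. With all reads pooled by group, and depth thus unequal, 142 of 767 distinct vehicle members (18.5%) were also among the 4699 of AC484 tumours (3.02% of these). In all 3 groups 72 members were found. No such overlap is given for other starts, so these counts are a description and no result about the members.

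The 10 members found in most tumours are shown as the most widely shared of the 922 members found in at least 2 tumours. Their traits are not those of all shared members. Of these, 9 are spelled out:
in 20 tumours: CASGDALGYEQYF
in 18 tumours: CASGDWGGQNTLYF
in 16 tumours: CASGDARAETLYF
in 15 tumours: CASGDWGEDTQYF
in 13 tumours: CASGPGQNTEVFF
in 13 tumours: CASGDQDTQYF
in 12 tumours: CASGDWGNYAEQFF
in 12 tumours: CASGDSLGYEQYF
in 12 tumours: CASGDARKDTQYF
All but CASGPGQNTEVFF kept the germline aspartate at position 5. They were short to average, between 11 and 14 residues, and ended in Trbj2-5 (3 of 9), Trbj2-7 (2 of 9), Trbj2-4, Trbj2-3, Trbj2-1 and Trbj1-1. None was large: the highest share of TRB reads that any of the 9 reached in a tumour was 0.351%.

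Many of these CDR3s had close relatives among the members. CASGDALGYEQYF had 14 members 1 substitution away, all at positions 6, 7 and 8, and it or such a relative was found in 30 tumours. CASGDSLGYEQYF was one of them, with serine at position 6. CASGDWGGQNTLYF had 13, at positions 6 and 8, and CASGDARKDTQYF had 14, at positions 6 and 8, which together with it reached 34 tumours. The substitutions of these 3 CDR3s fell between position 5 and the J ending. Relatives were sought among members only, and every member begins with CASG and finishes with a Trbj ending. The rule thus largely set where substitutions could fall, and nothing on the D gene or added bases is drawn from their positions. Relatives of 5 of the other CDR3s spelled out also differed at position 5: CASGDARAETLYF, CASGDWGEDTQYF, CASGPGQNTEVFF, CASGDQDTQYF and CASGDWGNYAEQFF.

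The remaining one of the 10, a 15-residue CDR3 ending in Trbj2-2, was found in 13 tumours but held 10976 of its 11033 reads in AC484 tumour 5. Elsewhere it had 1 to 19 reads, and with counts under 1% of the largest left out it remained in 1 tumour. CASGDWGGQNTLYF, in contrast, was kept in 14 of 18 tumours and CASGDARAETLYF in 16 of 16.

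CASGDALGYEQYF was found most often with AC484. With all reads used it was present in 13 of 15 AC484 tumours, 6 of 15 anti-PD-1 tumours and 1 of 14 vehicle tumours. Its highest shares of TRB reads were 0.351% in AC484 tumour 11, 0.341% in AC484 tumour 10, 0.242% in AC484 tumour 2 and 0.231% in AC484 tumour 4 (993 reads). In anti-PD-1 tumours it reached 0.0803% at most, and in the single vehicle tumour with it 0.0114% (9 reads). The groups overlapped, since AC484 tumours 1 and 14 held 5 and 2 reads. Among the others spelled out, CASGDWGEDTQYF, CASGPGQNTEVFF, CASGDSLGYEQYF and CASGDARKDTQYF were likewise found most often with AC484. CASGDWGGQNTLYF (5 vehicle, 8 anti-PD-1 and 5 AC484 tumours), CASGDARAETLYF, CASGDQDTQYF and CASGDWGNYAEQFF were found most often with anti-PD-1. AC484 tumours also held more distinct members, on average 79.5 against 36.2 with vehicle at equal depth. The part of this in the counts was not tested.

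At equal depth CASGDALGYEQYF was the only member among the 39 TRB CDR3s found in at least 10 tumours. It was present in 11 of 15 AC484, 3 of 15 anti-PD-1 and 1 of 14 vehicle tumours. It reached 10 tumours only through the AC484 tumours, so these counts are a description and no test of them is given. Of the 39 CDR3s, each of which passed the same filter, 20.5% were called between AC484 and vehicle by Fisher's exact test, and 0% in each of the other comparisons. The 39 include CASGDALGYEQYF, and a CDR3 can pass the filter through 1 group alone, so these shares are likewise a description. By index set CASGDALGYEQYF was present in 4 of 7 AC484 tumours of set 3, in 7 of 8 of set 4, in 0 of 5 anti-PD-1 tumours of set 3 and in 3 of 10 of set 2. With carry-over left out it was in 10 of 15 AC484, 3 of 15 anti-PD-1 and 0 of 14 vehicle tumours. When CDR3s found in at least 5 tumours were tested, 0 of 254 were called in any comparison by Fisher's exact test, with 40 of the 254 at an unadjusted p under 0.05 between AC484 and vehicle, 4 of the 13 members among them. The same limit holds for these counts.

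**Figure D3:**
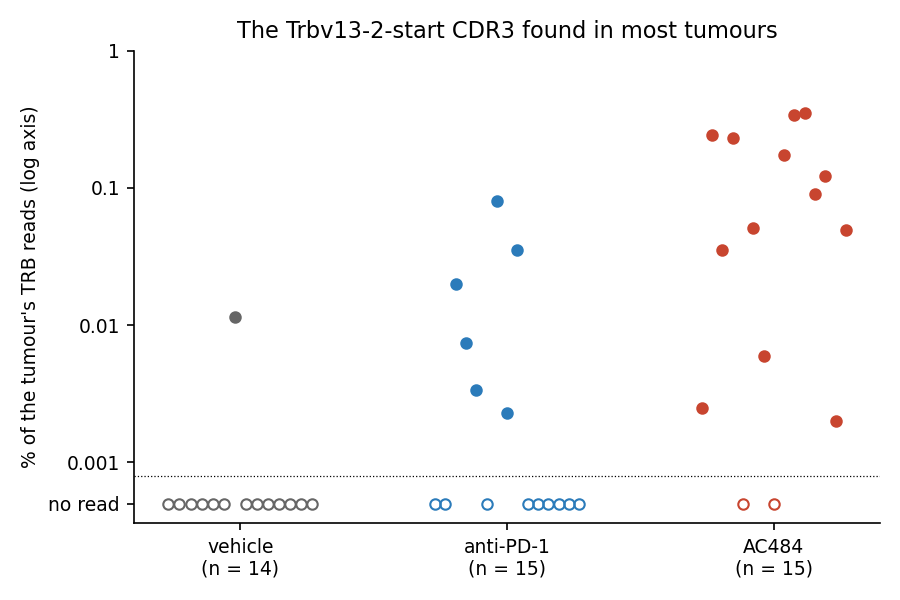
Percentage of a tumour's TRB reads held by the Trbv13-2-start CDR3 found in most tumours, on a log axis, by group. Filled points are tumours with at least 1 read and open points below the dotted line tumours with no read; the CDR3 is present in 13 of 15 AC484, 6 of 15 anti-PD-1 and 1 of 14 vehicle tumours.

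J gene endings of members differed from those of other TRB CDR3s at few genes. The ending DTQYF of Trbj2-5 closed 15.9% ± 5.21 of a tumour's members and 12.1% ± 1.11 of its other CDR3s, a difference of 3.81 points (95% interval 2.30 to 5.32; higher in 36 of 44 tumours; permutation within tumours, adjusted p = 0.00011). It was higher in 12 of 14 vehicle, 12 of 15 anti-PD-1 and 12 of 15 AC484 tumours, and for CASGD members alone the difference was 5.79 points. GQLYF of Trbj2-2 closed 4.75% ± 2.30 of members and 6.30% ± 0.784 of others (−1.55 points, lower in 34 of 44 tumours; adjusted p = 0.00032 by permutation within tumours).

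Trbj1-1, with the ending TEVFF, closed 7.79% ± 5.42 of members and 9.79% ± 1.25 of others, lower in 36 of 44 tumours (−2.0 points; permutation within tumours, adjusted p = 0.014). This call was lost with single reads left out (adjusted p = 0.19), with carry-over left out (adjusted p = 0.083), at equal depth (adjusted p = 0.11) and for CASGD members alone (adjusted p = 0.37, all by permutation within tumours). The other 9 genes, Trbj1-2, Trbj1-3, Trbj1-4, Trbj1-5, Trbj1-6, Trbj2-1, Trbj2-3, Trbj2-4 and Trbj2-7, differed by −0.914 to 0.833 points, with adjusted permutation p from 0.059 to 0.95. Among CASGD members, Trbj1-3 and Trbj2-4 were also lower, by −1.23 and −1.36 points (adjusted p = 0.0087 and 0.033 by permutation within tumours).

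**Figure D4:**
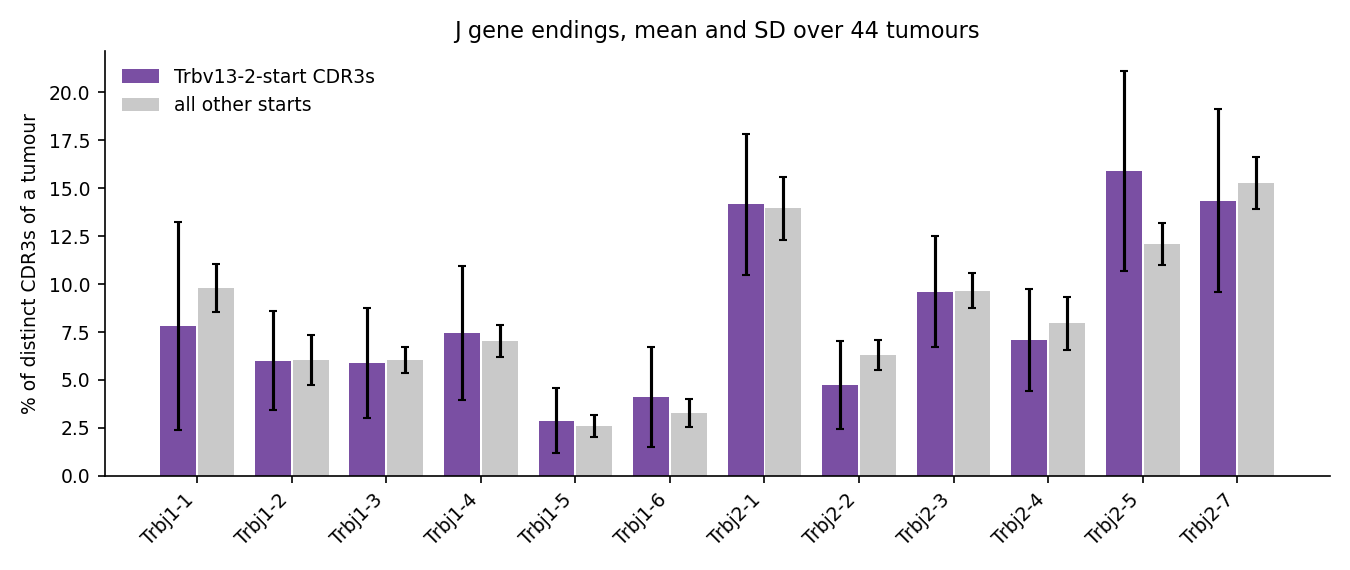
Percentage of a tumour's distinct CDR3s that end in each Trbj gene, for Trbv13-2-start CDR3s (purple) and all other starts (grey). Bars are means and error bars SD over 44 tumours; Trbj2-5 is higher among Trbv13-2-start CDR3s (15.9% against 12.1%) and Trbj2-2 lower (4.75% against 6.30%).

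By reads the order differed. Trbj2-3 led with 18.4% of all member reads against 9.61% of member entries, whereas Trbj2-5 held 10.7% of reads and 15.5% of entries. Trbj2-2 held 8.68% of reads from 4.97% of entries, 10976 of its 20032 reads being those of the single clone of AC484 tumour 5. These pooled reads were set by few tumours and were not tested.

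Pairing of the start with each J gene was compared between treatments over 71 start and J pairs. None of the 12 CASG pairs was called by edgeR's quasi-likelihood test in any comparison, whereas 1.41% of all pairs were called for AC484 against vehicle, 1.41% for AC484 against anti-PD-1 and 0% for anti-PD-1 against vehicle. At an unadjusted p under 0.05, 2, 1 and 3 of the 12 pairs passed, against 8, 7 and 4 of all 71, and DESeq2 also called 0 of the 12. The pair with Trbj1-1 formed 0.764% ± 0.165 of the distinct TRB CDR3s that carried 1 of the 12 endings with AC484 and 0.528% ± 0.509 with vehicle (log2 fold change 0.66, SE 0.23, edgeR adjusted p = 0.15). On the same scale, the pair with Trbj2-5 formed 1.32% ± 0.231 with AC484 and 1.69% ± 0.468 with anti-PD-1 (log2 fold change −0.25, SE 0.09, edgeR adjusted p = 0.15), and was called when single reads were left out (log2 fold change −0.39, edgeR adjusted p = 0.017). The pair with Trbj1-4 formed 0.891% ± 0.436 of them in vehicle tumours, 0.630% ± 0.303 in anti-PD-1 tumours and 0.590% ± 0.144 in AC484 tumours (edgeR adjusted p = 0.32 for AC484 over vehicle and 0.65 for anti-PD-1 over vehicle).

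Length did not set the class as a whole apart. Distinct members averaged 14.1 residues, as did other CDR3s (difference 0.00714, 95% interval −0.0525 to 0.0667; adjusted p = 0.95 by permutation within tumours). With J genes matched the difference was 0.00157 residues (95% interval −0.0532 to 0.0563). CASGD members alone were longer than the others by 0.196 residues (adjusted p = 4e-05 by permutation within tumours), and by 0.194 with J genes matched. By J gene, members were longest with Trbj2-2 (14.7 residues) and shortest with Trbj1-1 (13.5), and the same genes gave the longest other CDR3s (14.6, shared with Trbj2-3) and nearly the shortest (13.6).

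**Figure D5:**
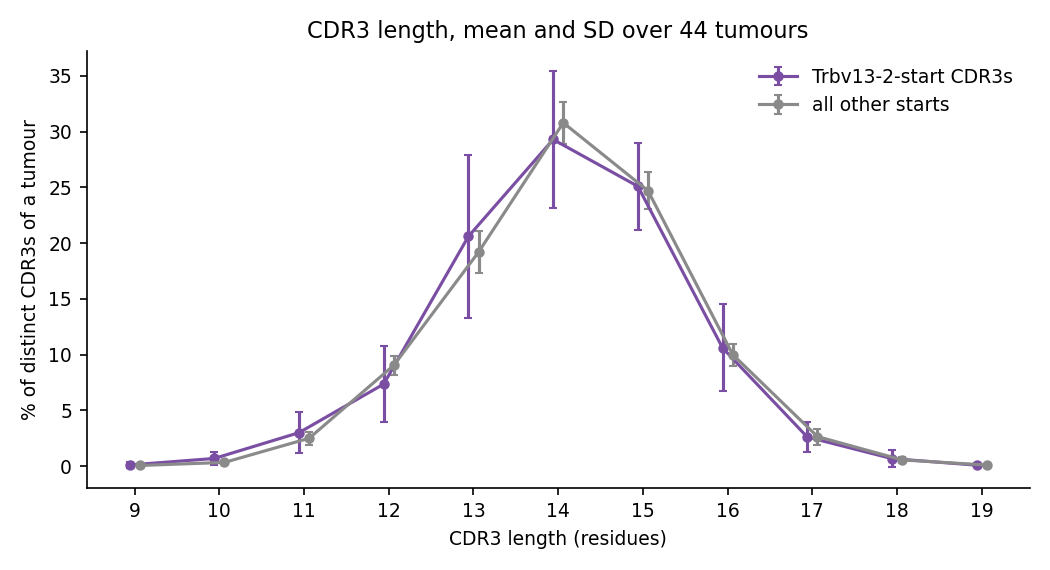
Percentage of a tumour's distinct CDR3s at each length from 9 to 19 residues, as mean and SD over 44 tumours, for Trbv13-2-start CDR3s (purple) and all other starts (grey). Both peak at 14 residues (29.3% and 30.8%).

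Length did not differ detectably between treatments. Distinct members averaged 14.0 ± 0.302 residues with vehicle, 14.1 ± 0.123 with anti-PD-1 and 14.1 ± 0.114 with AC484 at equal depth. The 3 differences ran from 0.0118 to 0.0352 residues (adjusted p = 0.89 by permutation test), and the widest 95% interval, for anti-PD-1 minus vehicle, reached from −0.160 to 0.206. Vehicle tumours spread most, from 13.5 in tumour 13 to 14.5 in tumour 5, each with few members. The share of members starting CASGD was likewise close, at 55.1% ± 11.9 with vehicle, 53.9% ± 3.59 with anti-PD-1 and 54.2% ± 2.98 with AC484.

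The invariant TCRα chain of iNKT cells was present in all 44 tumours. It held a median of 0.610% of TRA reads with vehicle, 0.776% with anti-PD-1 and 0.865% with AC484, and over the 44 tumours, which differed in depth and treatment, its share ranked with the member share of TRB reads at a Spearman rho of 0.209, given here as a description.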

How the data were processed

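From 44 bulk tumours, the authors prepared libraries with the Takara SMARTer kit for mouse TCRα and TCRβ, ran them on a MiSeq and assembled clonotypes in MiXCR. The deposited table lists, for every tumour, the count of reads behind each amino acid CDR3, not normalized for depth, with both chains together and no V gene, nucleotide sequence or molecular identifier. It also holds each clone as a deposited fraction of the tumour's count and library concentrations in nM (column of other values). The submitters' processing notes name mm10, which is GRCm38, the build of the germline genes used here (GENCODE M21).

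Chain was read from the longest germline J ending matched, over no fewer than 4 residues (12 TRB and 45 TRA genes). Tumours were drawn without replacement to 6415 TRB reads (mean of 100 draws, 20 in alternatives). Intervals and draws cover counting error and the spread between tumours only. Group means of 6 measures were compared by permutation (two-sided, 100000 resamples, or all arrangements for groups of under 10 tumours) and adjusted by Benjamini-Hochberg over 18 tests, and in each alternative over that alternative's own tests. Printed intervals of group differences allow unequal variances. Members were compared with other TRB CDR3s of the same 12 endings by swapping labels within tumours, over 16 tests. Reads per CDR3 and sharing there used all reads. Counts of distinct CDR3s per start, and per start and J gene, with at least 100 in all, were tested with edgeR 4.0.16 (TMM, quasi-likelihood, R 4.3.3), with DESeq2 1.42.0 as an alternative. Public CDR3s (in at least 10 tumours) were tested in 1 draw by Fisher's exact test. SciPy 1.17.1, NumPy 2.4.6 and Biopython 1.88 were run under Python 3.11.15, and tests were checked on simulated data. Per the methods, melanoma cells were injected on the back of each mouse and tissue was taken from each tumour, so tumours were treated as separate mice, although the labels give no mouse numbers.

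Named items were all 12 Trbj genes, the 10 members in most tumours, the 3 with the largest share of a tumour's TRB reads in each group, and public members past the threshold. CDR3s of 15 or more residues are given by length and J gene. Members and lists were chosen with earlier results of these data known.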

Additional observations from a re-analysis of the deposited data

How the results depend on the processing

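For the number of distinct members, no depth normalization gave calls for AC484 minus anti-PD-1 (157, adjusted p = 0.014 by permutation test) and anti-PD-1 minus vehicle (140). The latter was also called with single reads left out (26.9), without libraries under 3.5 nM (34.3) and without the 5 tumours of fewest TRB reads (33.7). Scaling and rounding lost AC484 minus vehicle (22.3), and no depth normalization gave calls for members found in another tumour (−11.0 and −3.75). The latter, AC484 minus anti-PD-1, turned to 0.966 with scaling and rounding and to 0.310 within index set 3. Leaving out 1 tumour at a time gave 34.4 to 46.8 for AC484 minus vehicle, 11.2 to 22.9 for AC484 minus anti-PD-1 and 20.9 to 26.8 for anti-PD-1 minus vehicle.

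Within tumours, Trbj1-1 fell under the threshold with single reads left out (−1.54), carry-over left out (−1.56), CASGD members only (−1.68) and at equal depth (−1.85). With CASGD members only, Trbj1-3 (−1.23) and Trbj2-4 (−1.36) passed. Length (0.196) and length at matched J genes (0.194) also passed, but cannot be told from the choice of members by residue 5. Public CDR3s called between AC484 and vehicle changed from 8 of 39 to 100 of 295 with all reads and 0 of 254 with at least 5 tumours. Between AC484 and anti-PD-1 they changed from 0 of 39 to 1 of 295 with all reads. Between anti-PD-1 and vehicle they changed from 0 of 39 to 18 of 295 with all reads and 3 of 23 with carry-over left out. A CDR3 can pass the filter on tumours through 1 group alone, so these counts are a description. DESeq2 called CASG for anti-PD-1 over vehicle (0.28), which turned to −0.15 at an equal TRB total, and leaving out single reads called 1 CASG pair for AC484 against anti-PD-1. The cause of these changes was not tested.

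The replicate numbers did not pair the tumours: deviations of tumours of different groups with the same number correlated at −0.02 on average (6 of 43 pairs above 0.1). With the replicate number as a block, AC484 minus vehicle was 43.7 distinct members (adjusted p = 0.0086 by permutation within pairs), and no call of the 18 differences or of the CASG fits changed. Shares over the same 12 endings, CASG starts with any TRB ending, near-copies, the concentration limit and the median reads were chosen after seeing the data, as was carry-over among public CDR3s. With all reads, vehicle tumours held 8 to 150 members each.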
